A study of Canis lupus familiaris with 9 samples.

Results

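The genes described here are those of the interferon response and of antigen presentation, read in cultured dog cells. They were chosen as a fixed list of 59 gene symbols, of which 52 were found as a single symbol on the array among 15947 named genes. Each of the 52 had a single probe set. They were split by role into 25 antiviral effectors, 17 signalling genes and 10 genes of antigen processing. The 7 listed genes that were not measured were IFIT1, IFIT3, XAF1, CMPK2, SAMD9 and SAMD9L, which no probe set named, and IFNAR2, whose probe set carried several symbols.

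The samples were 9 untreated primary cultures of dog cells (Canis lupus familiaris), with 1 Affymetrix array each and 3 arrays in each of 3 groups named Fibroblast, Brain and SKN. Fibroblast cultures came from skin biopsies and were grown in medium with 10% fetal bovine serum. SKN cultures, skin-derived neural precursors, came from skin in serum-free medium with EGF at 20 ng/mL, FGF at 40 ng/mL and 2% B-27, and first grew as floating spheres. Brain cultures are brain-derived neural precursors, and the labels used here leave their medium out, so the effects of medium and of cell type cannot be told apart. Since arrays are not tied to dogs in the labels, a p reflects the spread among these arrays alone, which may be technical. The labels name no treatment with interferon or a virus, and whether every culture was at rest was not tested.

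Cells answer viral RNA through sensors such as IFIH1 and TLR3, whose adaptors switch on the transcription factors IRF3 and IRF7 and, with them, the interferon genes. Secreted interferon binds its receptor on the same or a neighbouring cell, the kinases JAK1 and TYK2 phosphorylate STAT2, which acts with IRF9 to induce effectors that degrade, trap or edit viral RNA. Interferon gamma acts through its own receptor and raises the immunoproteasome, the peptide transporter TAP and, through CIITA, the class II molecules.

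Values are log2 signals as deposited, with medians of 4.71 to 4.79 over the 9 arrays. Within a group, pairs of arrays had correlations of 0.978 to 0.985 over all probe sets. Fibroblast markers averaged 10.41 to 10.68 in Fibroblast and 10.71 to 10.96 in SKN, against 4.18 and 4.21 in Brain 1 and Brain 2 and 6.17 in Brain 3. Of 8 measured markers of neural precursors and glia, limma called 0 between SKN and Fibroblast, with 2 at an unadjusted p under 0.05. The fibroblast markers thus read as high in SKN as in Fibroblast. In Brain, nestin (NES) read 7.96 to 8.73 against 6.29 to 6.89 in the skin arrays. SOX2 read 7.36, 7.16 and 5.34 in Brain against 4.89 to 5.57. Of the 8 neural markers, limma called 2 (NES and SOX10) higher in Brain than in Fibroblast. SOX2 was not called (adjusted p 0.0651), and FABP7 and MSI1 were not higher in Brain. Markers of neural crest and Schwann cells averaged 8.42 to 8.63 in Brain. Fibroblast 1 stood apart with a mean of 5.61 for the crest and Schwann markers, where Fibroblast 2 had 4.56 and Fibroblast 3 had 4.24, and is reported apart below. Among these markers TFAP2A, FOXD3 and S100B were not highest in Fibroblast 1.

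A gene is called where limma's moderated test gave an adjusted p under 0.05, with Benjamini-Hochberg adjustment over the 32205 probe sets within a comparison. Differences are in log2 units, where 1 unit is a doubling of signal. The value after ± is the fit's standard error (SE), with n = 3 in either group unless an array is left out. The values carry no detection calls. A low reading therefore does not show absence, and a difference is one of signal rather than an RNA ratio. Of the 52 genes, 18 were called in 1 or more of the 3 comparisons and 34 in none, beside 33.2% of all named genes called in 1 or more. That share of members (34.6%) lies near the background, and the account below is of single genes.

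**Figure D1:**
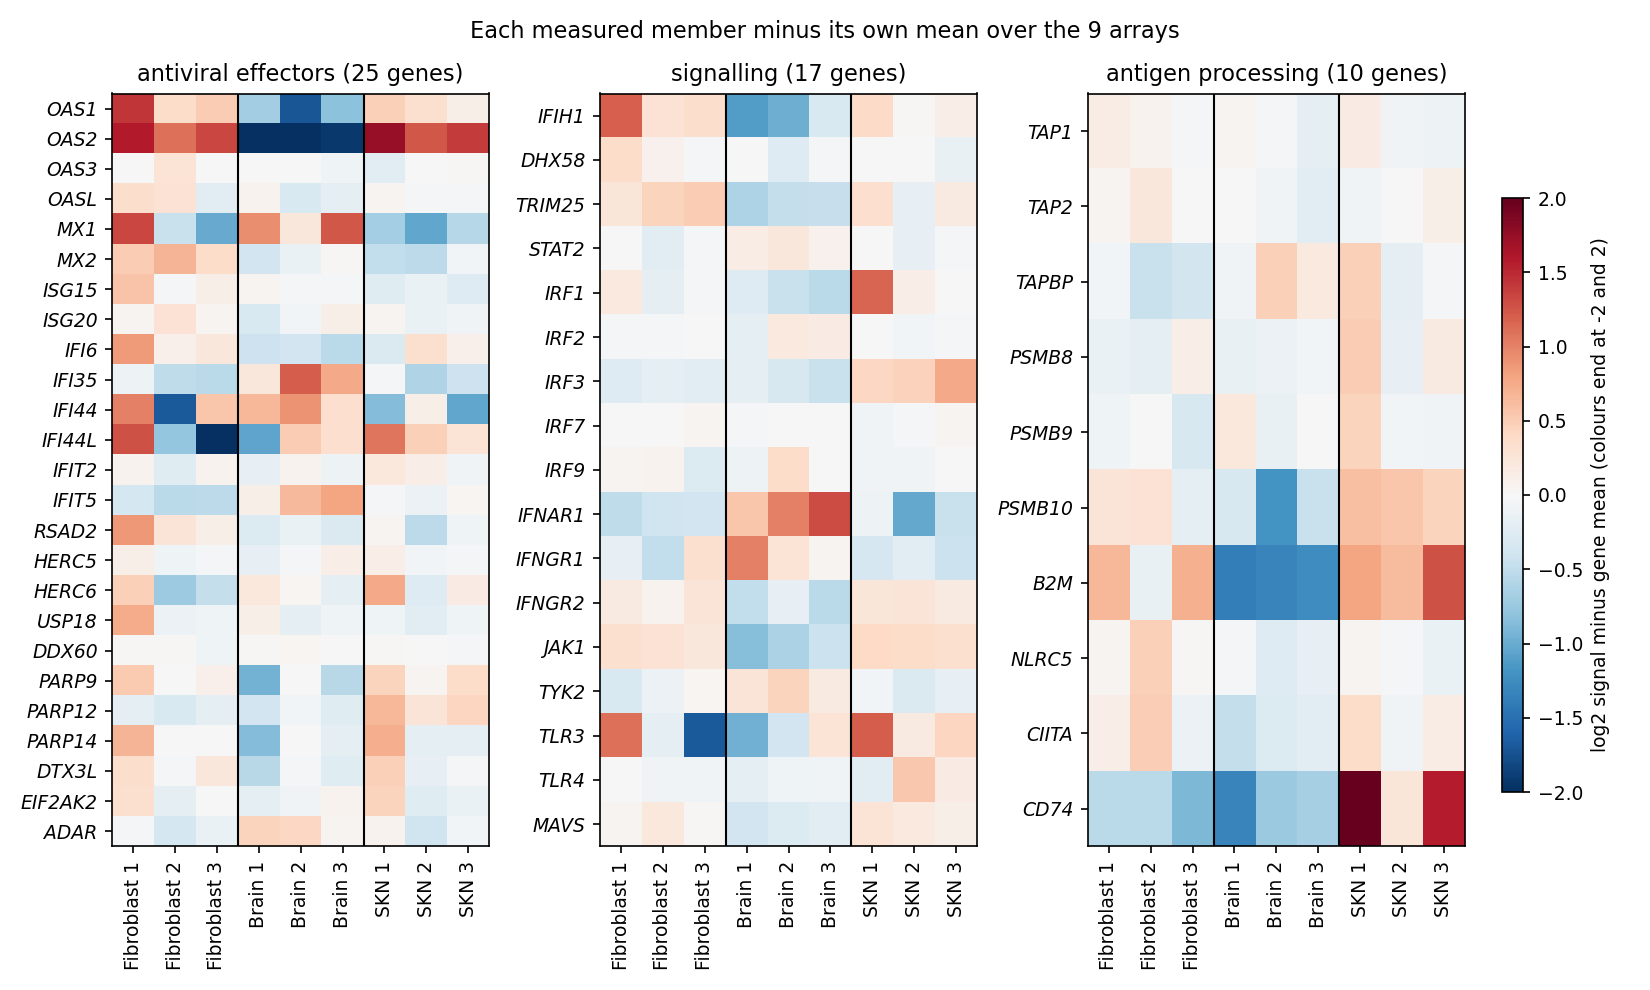
Each of the 52 measured genes (rows) in the 9 arrays (columns), as log2 signal minus the gene's own mean over the 9 arrays, in 3 panels by role; red is above and blue below that mean, and colours end at -2 and 2. OAS2 and B2M are low in all 3 Brain arrays, CD74 is highest in SKN 1 and SKN 3, and many antiviral effectors are redder in Fibroblast 1 than in Fibroblast 2 and Fibroblast 3.

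The oligoadenylate synthetases OAS1 and OAS2, which make the second messenger that activates the nuclease RNase L, were low in the Brain cultures. OAS2 read 7.48, 6.99 and 7.23 in Fibroblast 1 to 3, 7.64, 7.13 and 7.30 in SKN 1 to 3, and 2.92, 2.39 and 3.97 in Brain 1 to 3. Every Brain array lay below every skin array by more than 3 units. The difference was -4.14 ± 0.36 for Brain minus Fibroblast (adjusted p 1.83e-04) and 4.27 ± 0.36 for SKN minus Brain (adjusted p 1.28e-04), comparisons that share the 3 Brain arrays. Brain 3, the Brain array with the most fibroblast marker signal, also had the highest OAS2 of the Brain arrays, and the part of such cells in this reading was not tested. OAS1 read 5.96, 4.90 and 5.04 in Fibroblast, 5.01, 4.85 and 4.64 in SKN, and 3.84, 2.81 and 3.70 in Brain. Again the Brain arrays did not overlap either skin group. OAS1 was lower in Brain than in Fibroblast (-1.85 ± 0.34, adjusted p 0.00609) and higher in SKN than in Brain (1.38 ± 0.34, adjusted p 0.0252), the latter call ending in 4 of 9 removals of a single array (highest adjusted p 0.0719, without SKN 2). OAS3, which lies between OAS1 and OAS2 in the reference annotation with no coding gene in between, read 3.75 to 4.26 over all 9 arrays and was not called in any of the 3 comparisons. OASL, a relative that does not make the messenger in humans, read 3.19 to 3.85 and was not called either.

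The MX genes encode dynamin-like GTPases that block viral particles and are also neighbours, yet their readings differed in pattern. MX1 read 5.61 in Fibroblast 1 and 3.82 and 3.27 in Fibroblast 2 and Fibroblast 3. It read 5.20, 4.50 and 5.52 in Brain and 3.59, 3.23 and 3.70 in SKN. Fibroblast 1 lay above all Brain arrays, while Fibroblast 2 and Fibroblast 3 lay below them. With all 9 arrays MX1 was not called, at 0.84 ± 0.54 for Brain minus Fibroblast (adjusted p 0.327) and -1.57 ± 0.54 for SKN minus Brain (adjusted p 0.092). Without Fibroblast 1 it was called in both, at 1.53 ± 0.32 (adjusted p 0.0179) and -1.57 ± 0.29 (adjusted p 0.0108). The SKN minus Brain difference does not use Fibroblast 1, so it stayed at -1.57 while the SE from the shared variance fell. As Fibroblast 1 stood apart in MX1, these calls after its removal are no independent evidence. MX2 read 3.60, 3.78 and 3.47 in Fibroblast, 2.72, 2.97 and 3.12 in Brain, and 2.61, 2.58 and 3.05 in SKN, with the Fibroblast arrays above all others. It was lower than in Fibroblast in SKN (-0.87 ± 0.17, adjusted p 0.0292) and in Brain (-0.68 ± 0.17, adjusted p 0.0224). Those MX2 calls ended in 6 and 4 of 9 removals of 1 array, without Fibroblast 1 among them (0.074 and 0.0563), and reached 0.101 (without SKN 1) and 0.0735 (without Fibroblast 2).

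Other effectors were higher in Brain. IFIT5, a protein that binds the ends of viral RNA, read 8.89, 9.42 and 9.57 in Brain, 8.42, 8.23 and 8.25 in Fibroblast, and 8.73, 8.66 and 8.82 in SKN. The 3 groups did not overlap, with Brain highest and Fibroblast lowest. The call was made for Brain minus Fibroblast (0.99 ± 0.17, adjusted p 0.00472), not for SKN minus Fibroblast (0.44 ± 0.17, adjusted p 0.246) or SKN minus Brain (-0.56 ± 0.17, adjusted p 0.0627). IFI35, a leucine zipper protein, read 5.05, 6.04 and 5.59 in Brain and between 4.22 and 4.80 in the 6 skin arrays. It was higher in Brain than in Fibroblast (1.12 ± 0.26, adjusted p 0.0182) and lower in SKN than in Brain (-1.08 ± 0.26, adjusted p 0.0245), calls that ended in 3 and 4 of 9 removals (up to 0.0622, without Fibroblast 3, and 0.0858, without SKN 2).

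IFI6, a small membrane protein, went the other way, at 6.12, 5.37 and 5.50 in Fibroblast and 4.86, 4.89 and 4.74 in Brain (Brain minus Fibroblast -0.84 ± 0.22, adjusted p 0.0292). Without Fibroblast 1 that difference of IFI6 was -0.61 with an adjusted p of 0.0624, and the call ended in 5 of 9 removals (up to 0.086, without Brain 3). PARP12, an enzyme that attaches ADP-ribose to proteins, was higher in SKN, at 6.68, 6.28 and 6.45 against 5.72 to 5.83 in Fibroblast and 5.63 to 5.97 in Brain. The difference of PARP12 was 0.68 ± 0.14 against Fibroblast (adjusted p 0.0335) and also 0.68 ± 0.14 against Brain (adjusted p 0.0101). The first PARP12 call ended in 6 of 9 removals (up to 0.0981, without Fibroblast 2), the second in none of the 9.

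**Figure D2:**
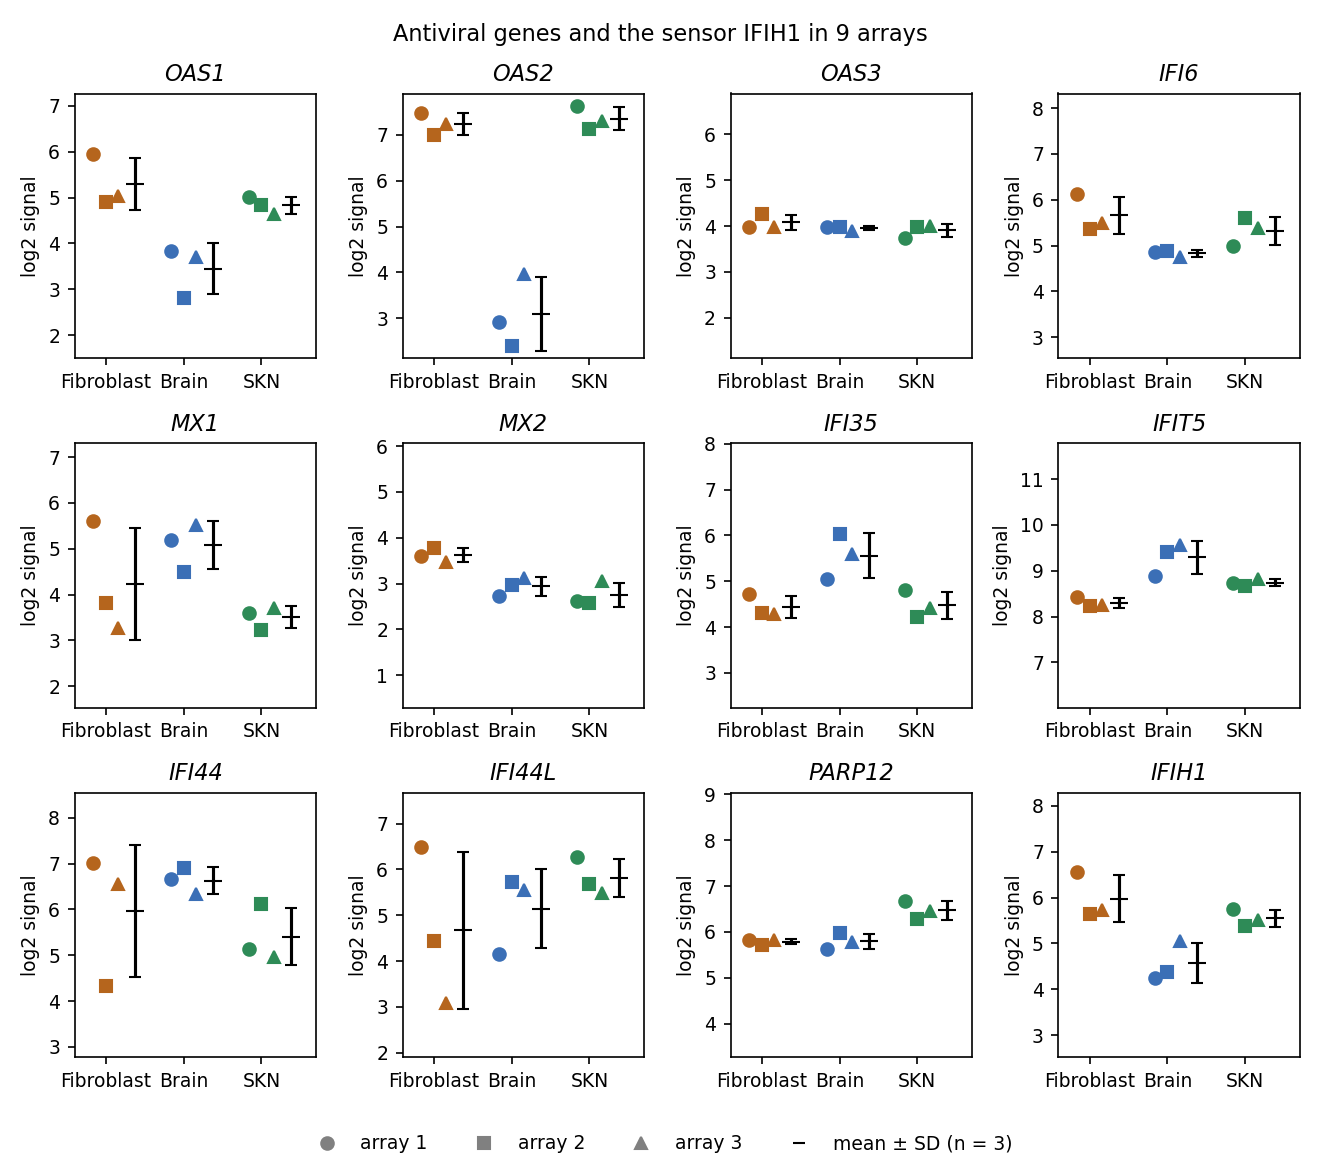
Log2 signal (vertical axis, the same length of scale in every panel) of 11 antiviral genes and the RNA sensor IFIH1 in the Fibroblast, Brain and SKN groups; marker shapes give arrays 1 to 3 and the black bar the mean ± SD of 3 arrays. OAS1, OAS2 and IFIH1 are lowest in Brain, IFI35 and IFIT5 are highest in Brain, and Fibroblast 1 lies above the other Fibroblast arrays for MX1 and IFI44L.

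The remaining 18 effectors were not called in any comparison. ISG15, the ubiquitin-like protein that effectors attach to other proteins, read 1.45 to 2.28 over the 9 arrays, and RSAD2 (viperin), which makes a nucleotide that stops viral polymerases, read 2.92 to 4.32. USP18, which removes ISG15 from proteins, read 2.35 to 3.32. In all 3 genes the highest reading was that of Fibroblast 1. PARP9 and DTX3L, neighbouring genes whose products form a complex, read 4.65 to 6.13 and 4.02 to 5.04, and the RNA-activated kinase EIF2AK2 read 6.90 to 7.58. DDX60 ranged over 0.12 units (1.57 to 1.69), HERC5 over 0.29 and IFIT2 over 0.45. Of the 52 genes, 8 ranged over less than 0.5 units in all 9 arrays, beside 22.6% of all named genes.

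Among the receptors, IFNAR1 was higher and IFNGR2 lower in Brain than in both skin groups. IFNAR1, a chain of the type I receptor, read 8.01, 8.47 and 8.77 in Brain, 6.95, 7.06 and 7.08 in Fibroblast, and 7.35, 6.43 and 7.01 in SKN. All 3 Brain arrays exceeded all 6 skin arrays, and the difference was 1.39 ± 0.25 for Brain minus Fibroblast (adjusted p 0.00603) and -1.49 ± 0.25 for SKN minus Brain (adjusted p 0.00492). IFNGR2, the signal-passing chain of the interferon gamma receptor and the next coding gene to IFNAR1 in the reference annotation, read 8.04, 8.36 and 7.98 in Brain, 8.71, 8.60 and 8.78 in Fibroblast, and 8.76, 8.79 and 8.71 in SKN. Here the Brain arrays lay below all skin arrays (-0.56 ± 0.12 for Brain minus Fibroblast, adjusted p 0.0122, and 0.62 ± 0.12 for SKN minus Brain, adjusted p 0.00885). IFNGR1, the ligand-binding chain, read 7.93 to 8.88 in Brain and 7.38 to 8.19 in the skin arrays and was not called (0.56 and -0.78 in the same comparisons). These IFNGR1 differences have the sign of those of IFNAR1, not of IFNGR2.

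Of the kinases, JAK1 was lower and TYK2 higher in Brain than in both skin groups. JAK1, which serves both receptors, read 8.39, 8.61 and 8.80 in Brain, 9.55, 9.52 and 9.46 in Fibroblast, and 9.63, 9.61 and 9.55 in SKN. Brain lay below both skin groups with no overlap (-0.91 ± 0.12 against Fibroblast, adjusted p 0.0012, and 1.00 ± 0.12 for SKN minus Brain, adjusted p 7.63e-04). TYK2, the partner kinase of IFNAR1, read 6.10, 6.29 and 6.03 in Brain and 5.54 to 5.89 in the skin arrays. Its differences of 0.42 ± 0.13 (Brain minus Fibroblast, adjusted p 0.049) and -0.46 ± 0.13 (SKN minus Brain, adjusted p 0.0407) passed narrowly and ended in 8 and 7 of 9 removals (up to 0.143, without Brain 2, and 0.13, without SKN 2), and under quantile normalization and median centring.

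Of the sensors and adaptors, IFIH1 (MDA5), which recognises long double-stranded RNA, read 4.25, 4.38 and 5.06 in Brain, 6.56, 5.65 and 5.72 in Fibroblast, and 5.75, 5.38 and 5.50 in SKN. The Brain arrays were the lowest 3 of the 9. The call was made against Fibroblast (-1.41 ± 0.29, adjusted p 0.00979, and -1.12 without Fibroblast 1, adjusted p 0.0212). For SKN minus Brain the difference of IFIH1 was 0.98 ± 0.29 (adjusted p 0.0526), and without Fibroblast 1, whose spread enters the shared variance, 0.98 ± 0.22 (adjusted p 0.0243). TRIM25, a ubiquitin ligase that activates the sensor RIG-I, read 6.54, 6.68 and 6.69 in Brain, 7.40, 7.60 and 7.67 in Fibroblast, and 7.49, 7.00 and 7.34 in SKN. It was lower in Brain than in Fibroblast (-0.92 ± 0.14, adjusted p 0.00284) and higher in SKN than in Brain (0.64 ± 0.14, adjusted p 0.0175), the second call ending without Brain 1 or SKN 3 (up to 0.0662). MAVS, the mitochondrial adaptor of these sensors, read 7.00 to 7.15 in Brain and 7.41 to 7.65 in the skin arrays (-0.40 ± 0.10 for Brain minus Fibroblast, adjusted p 0.0238, and 0.49 ± 0.10 for SKN minus Brain, adjusted p 0.011). The first of the MAVS calls ended in 4 of 9 removals (up to 0.0677, without Fibroblast 2). TLR3, the endosomal sensor of double-stranded RNA, read 6.94, 5.65 and 4.15 in Fibroblast, 4.88, 5.45 and 6.11 in Brain, and 7.04, 6.02 and 6.27 in SKN, with overlapping groups and no call.

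IRF3, the factor that the sensors activate, was the only signalling gene called between SKN and Fibroblast. It read 7.65, 7.71 and 8.00 in SKN, 6.98, 7.07 and 7.01 in Fibroblast, and 7.05, 6.92 and 6.80 in Brain. The SKN arrays lay above all others, by 0.77 ± 0.12 against Fibroblast (adjusted p 0.0134) and 0.86 ± 0.12 against Brain (adjusted p 0.00185). The call against Fibroblast ended without Fibroblast 3 (0.0538). The other interferon regulatory factors were not called. IRF7, the amplifier of the response, read 5.18 to 5.30 over all 9 arrays, and IRF2, which opposes IRF1 at shared sites, read 7.15 to 7.52. STAT2 read 7.06 to 7.50 and its partner IRF9 5.77 to 6.41. For STAT2 the 95% interval of SKN minus Fibroblast was -0.21 to 0.26. IRF1 read 5.79 in SKN 1 and 4.10 to 4.82 in the 8 other arrays.

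**Figure D3:**
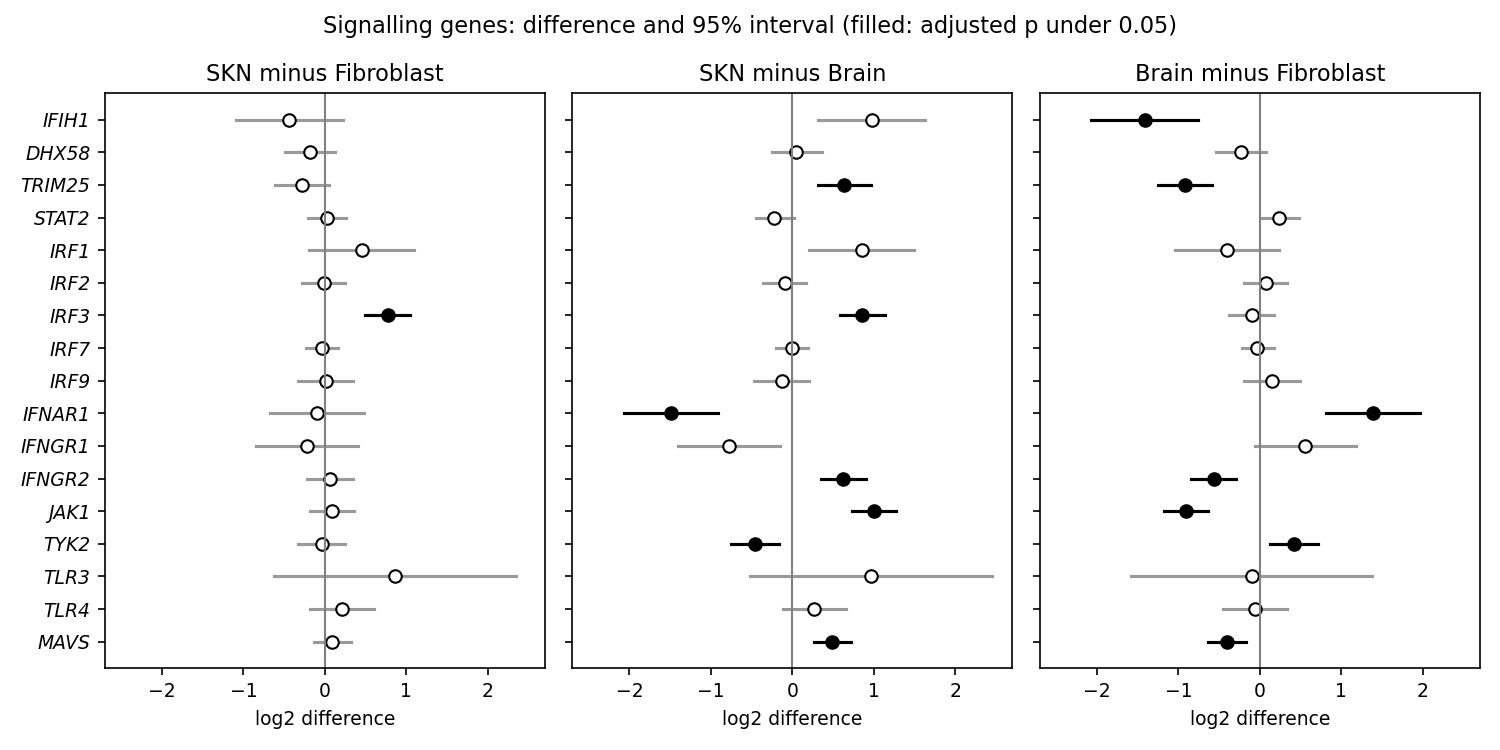
Log2 difference (horizontal axis) of the 17 signalling genes in the 3 comparisons, with the 95% interval of limma's fit as a line; filled black points passed an adjusted p of 0.05 and open points did not. Brain carries more IFNAR1 and TYK2 and less JAK1, IFNGR2, TRIM25 and MAVS than both skin groups, and IRF3 is higher in SKN than in both other groups.

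In antigen processing, Brain cultures carried less B2M, the light chain of all class I molecules. It read 6.31, 6.36 and 6.45 in Brain, 8.35, 7.54 and 8.40 in Fibroblast, and 8.48, 8.32 and 8.96 in SKN. No Brain array came within 1 unit of a skin array, and the difference was -1.72 ± 0.25 for Brain minus Fibroblast (adjusted p 0.00206) and 2.21 ± 0.25 for SKN minus Brain (adjusted p 5.97e-04). Brain 3, with more fibroblast marker signal than the other Brain arrays, read 6.45 for B2M, close to their 6.31 and 6.36. The class I heavy chains measured outside the list of 59 were not called in any comparison. DLA88 read 6.99, 7.52 and 6.54 in Brain, 7.45, 8.01 and 8.30 in Fibroblast, and 7.87, 7.31 and 6.21 in SKN, with a difference of 0.12 ± 0.43 for SKN minus Brain and -0.90 ± 0.43 for Brain minus Fibroblast (adjusted p 0.186). DLA-64 read 5.84 to 7.10 in Brain and 6.14 to 7.46 in the skin arrays, and DLA-79 read 3.12 to 3.46 in Brain and 3.14 to 4.89 in the skin arrays. The heavy chain readings of Brain and skin thus overlapped where those of B2M did not. PSMB10, an inducible catalytic subunit of the immunoproteasome, read 6.32, 5.44 and 6.19 in Brain, 6.90, 6.92 and 6.44 in Fibroblast, and 7.24, 7.19 and 7.08 in SKN. It was higher in SKN than in Brain (1.19 ± 0.24, adjusted p 0.00991), while Brain minus Fibroblast just missed the threshold (-0.77 ± 0.24, adjusted p 0.0508). The block of neighbouring genes TAP2, PSMB8, TAP1 and PSMB9, which encodes the peptide transporter and the other inducible proteasome subunits, was not called in any comparison. TAP1 read 6.29 to 6.64 and TAP2 5.72 to 6.16 over the 9 arrays. For TAP1 the 95% interval of SKN minus Brain was -0.21 to 0.32. TAPBP (tapasin), which loads peptides onto class I, read 7.56 to 8.48, and NLRC5, the activator of class I genes, read 3.59 to 4.33, again with no call.

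CD74, the invariant chain that guides class II molecules to the endosome, was high in SKN. It read 7.09, 4.48 and 5.81 in SKN 1 to 3, 3.70, 3.70 and 3.34 in Fibroblast, and 2.91, 3.49 and 3.57 in Brain. The SKN arrays lay above all others but were far apart from each other, with SKN 1 the highest and SKN 2 the lowest. CD74 was higher in SKN than in Brain (2.47 ± 0.55, adjusted p 0.0168), a call that ended without Brain 1 or SKN 3 (up to 0.0553). Against Fibroblast the difference was 2.22 ± 0.55 (95% interval 0.96 to 3.47, adjusted p 0.0729). CIITA, the master regulator of class II transcription, read 5.13, 4.69 and 4.91 in SKN, 4.90, 5.25 and 4.64 in Fibroblast, and 4.29, 4.49 and 4.55 in Brain. Its 95% interval for SKN minus Fibroblast was -0.43 to 0.38, and the CIITA readings of the skin groups overlapped.

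Class II genes are not on the list of 59, and those measured are given here beside CD74. DLA-DRA, the class II alpha chain, read 8.96, 5.40 and 7.51 in SKN 1 to 3, and 2.82 to 3.51 in the 6 Fibroblast and Brain arrays. It was called higher in SKN than in Fibroblast (3.92 ± 0.73, adjusted p 0.0252) and than in Brain (4.19 ± 0.73, adjusted p 0.00543). The first of the DLA-DRA calls ended without Fibroblast 1, Fibroblast 2, Fibroblast 3 or SKN 3 (up to 0.0939). DLA-DMA, part of the peptide editor of class II, read 8.03, 5.46 and 6.76 in SKN against 4.74 to 5.15 elsewhere, and was not called (1.86 ± 0.53 against Fibroblast, adjusted p 0.108). DLA-DMB, its partner, which was chosen after its values were seen, read 7.14, 4.88 and 6.22 in SKN against 3.45 to 4.42 elsewhere. The DLA-DMB call against Fibroblast (2.25 ± 0.49, adjusted p 0.0471) ended in 8 of 9 removals (up to 0.137, without Fibroblast 2). DLA-DQA1 read 7.24, 3.14 and 4.29 in SKN and 2.15 to 3.09 elsewhere, with no call. Each of these 4 genes and CD74 was highest in SKN 1 and lowest in SKN 2 among the SKN arrays. DLA-DOA and DLA-DOB, chains of a class II modulator, had neither that order nor high SKN readings. DLA-DOA read 2.11, 2.35 and 2.35 in SKN against 2.27 to 2.91 elsewhere, and DLA-DOB read 2.20, 2.32 and 2.20 against 1.90 to 2.23, with no call for either.

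Class II molecules are a mark of professional antigen-presenting cells, so leukocyte markers are set beside these values. Over 22 measured markers of leukocytes and microglia the mean was 3.35, 3.43 and 3.44 in SKN 1 to 3, and 3.47 to 3.57 in Fibroblast. Of the 22, 16 had a mean under 4 over all arrays, so these list means rest mostly on low readings. Between SKN and Fibroblast limma called 0 of the 22, with 3 at an unadjusted p under 0.05. CD68 (-1.23 ± 0.39, adjusted p 0.146) and TMEM119 (-0.54 ± 0.12, adjusted p 0.0512) read lower in SKN than in Fibroblast. CSF1R, given below, went the other way. The pan-leukocyte phosphatase PTPRC read 2.17, 2.11 and 2.17 in SKN 1 to 3, and 2.06 to 2.46 in the other arrays. SPI1, a myeloid transcription factor, read 4.07, 4.48 and 4.44 in SKN 1 to 3, lowest in SKN 1. CSF1R, the receptor for a macrophage growth factor, read 4.42, 3.98 and 4.53, lowest in SKN 2 as the class II genes were, against 3.51 to 4.04 elsewhere (SKN minus Fibroblast 0.57 ± 0.17, adjusted p 0.136). Endothelial markers, which can also accompany class II, averaged 4.25, 4.41 and 4.45 in SKN 1 to 3, and single markers differed in order. Of the 10 endothelial markers, limma called 1 higher (EMCN) and 2 lower (KDR and ERG) between SKN and Fibroblast. Between SKN and Brain 3 were called higher and 1 lower. Endomucin (EMCN) read 4.08, 6.79 and 6.44, lowest in SKN 1, and exceeded Fibroblast by 3.21 ± 0.59 (adjusted p 0.0247). PECAM1, an adhesion molecule of endothelium, read 4.32, 3.62 and 3.87, in the order of DLA-DRA, and was higher in SKN than in Brain (0.81 ± 0.18, adjusted p 0.015). TEK, an angiopoietin receptor, read 3.89, 3.37 and 3.40, also highest in SKN 1. The part of leukocytes or endothelial cells in the class II readings was not tested. Fewer cells of a type and less RNA per cell cannot be told apart in such bulk samples.

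**Figure D4:**
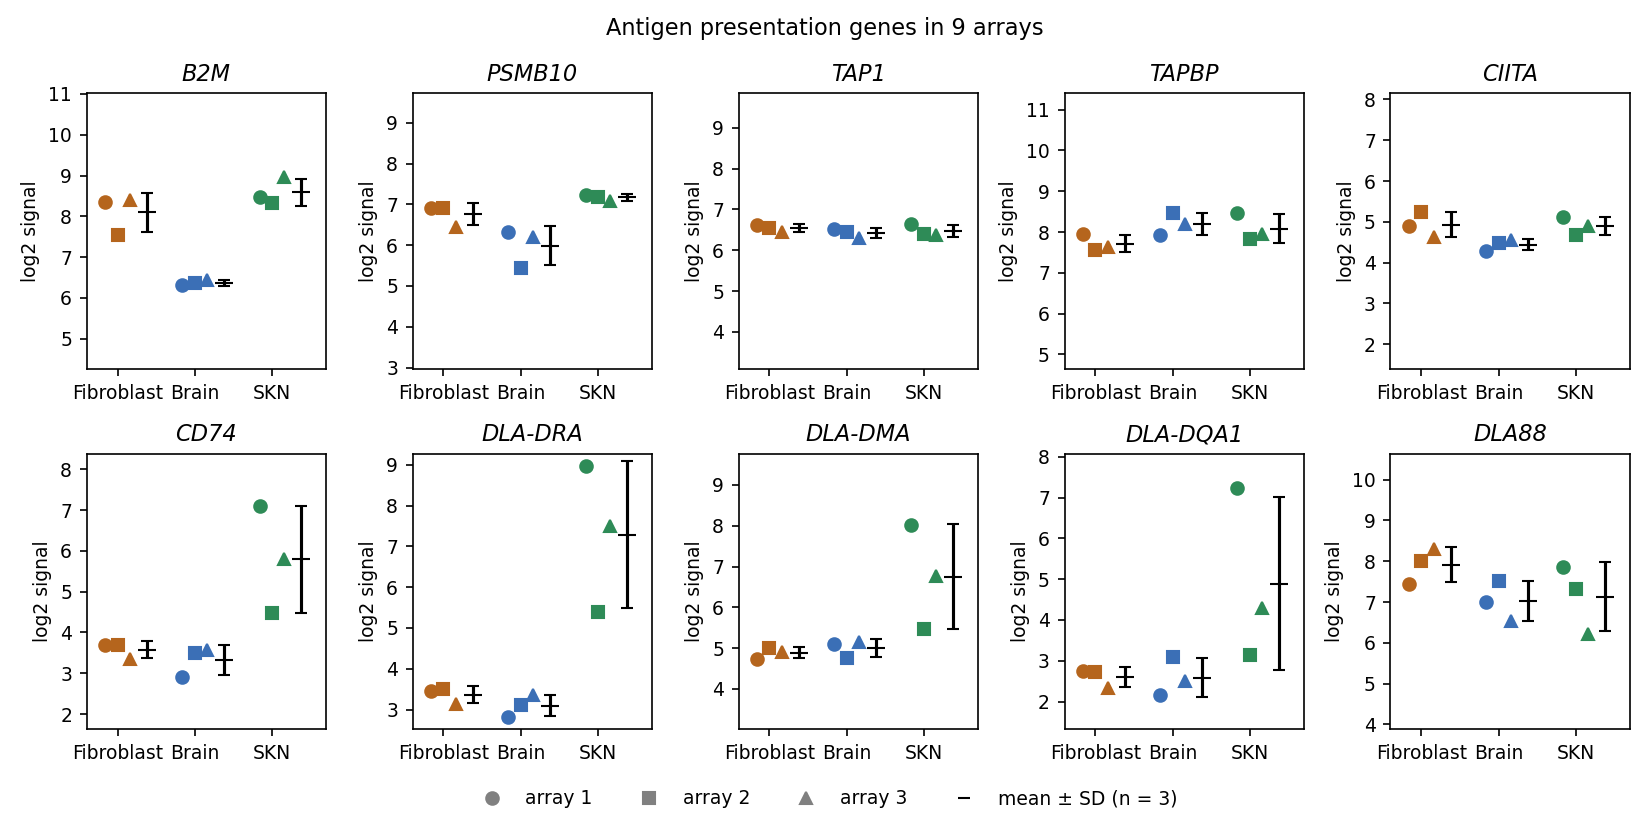
Log2 signal (vertical axis, the same length of scale in every panel) of 6 listed antigen presentation genes and 4 dog leukocyte antigen genes in the 3 groups; marker shapes give arrays 1 to 3 and the black bar the mean ± SD of 3 arrays. B2M is lowest in Brain, and CD74, DLA-DRA, DLA-DMA and DLA-DQA1 share the order SKN 1, SKN 3, SKN 2 while CIITA and TAP1 stay within 1 unit.

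By comparison, few of these genes were called between SKN cells and fibroblasts of the same organ, a share near that of all named genes. Between SKN and Fibroblast 2 of 52 were higher (PARP12 and IRF3), 1 lower (MX2) and 49 not called. That is 5.77% called, beside 4.55% of all named genes (2.45% higher and 2.10% lower). SKN lay wholly above Fibroblast for 6 members and wholly below for 3, beside 11.7% and 15.0% of all named genes (26.7% in either direction). The median difference was -0.09 over the effectors, 0.01 over the signalling genes and 0.24 over the antigen genes, beside -0.04 over all named genes. Of the 10 antigen genes limma called 0, with 1 (CD74) at an unadjusted p under 0.05. Without Fibroblast 1 the number called fell to 1, IRF3.

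Between SKN and Brain, the comparison of precursors from skin and from brain, SKN had 11 of 52 members higher, 3 members lower and 38 that were not called. That is 26.9% called, beside 22.6% of all named genes (10.9% higher and 11.7% lower). SKN lay wholly above Brain for 16 members and wholly below for 9, beside 20.2% and 19.7% of all named genes (40.0% in either direction). Over the signalling genes 5 of 17 were higher and 2 lower, over the effectors 3 of 25 higher and 1 lower, and over the antigen genes 3 of 10 higher and none lower. The median differences were 0.27, 0.05 and 0.20, beside 0.01 over all named genes. Between Brain and Fibroblast 4 were higher in Brain, 10 lower and 38 not called, beside 13.8% of all named genes called higher and 13.2% called lower. Brain lay wholly above Fibroblast for 6 members and wholly below for 15, beside 20.8% and 23.5% of all named genes (44.3% in either direction). By role this comparison had 2 effectors higher and 4 lower, 2 signalling genes higher and 5 lower, and 1 antigen gene lower.

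Other genes of the pathway, 67 of which were measured from a further list of 87, had 2 higher and 1 lower between SKN and Fibroblast, 11 higher and 1 lower between SKN and Brain, and 2 higher and 11 lower between Brain and Fibroblast. The called shares of 4.48%, 17.9% and 19.4% compare with 4.55% and 22.6% of all named genes in the first comparisons, and with 13.8% higher and 13.2% lower in the last, so they were not above the background. SP100, an interferon-induced nuclear body protein, read 2.52, 2.66 and 3.96 in Brain and 5.80 to 6.34 in the skin arrays (-2.90 ± 0.36 for Brain minus Fibroblast, adjusted p 9.25e-04). The death ligand TNFSF10 (TRAIL) read 3.87, 6.08 and 6.19 in Brain and 8.48 to 9.41 in the skin arrays (-3.77 ± 0.56, adjusted p 0.00228). IFI30, a thiol reductase of class II processing, read 7.65 to 7.80 in Brain, 8.52 to 9.13 in Fibroblast and 9.19 to 10.04 in SKN (1.97 ± 0.23 for SKN minus Brain, adjusted p 7.04e-04). ERAP1, which trims peptides for class I, was higher in SKN at 7.05 to 7.11 than in Brain at 5.58 to 6.28 (1.22 ± 0.17, adjusted p 0.00206). CNP rose in Brain (2.86 ± 0.20 against Fibroblast, adjusted p 6.29e-05), but it is also an enzyme of myelin-forming cells. The interferon genes IFNB1, IFNE, IFNK, IFNG and IFNL1 read between 1.45 and 3.44 in all arrays.

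Fibroblast 1 is now described against the other arrays of its group, with no test, since it is 1 array. Of the 25 effectors, 20 (80.0%) were highest in Fibroblast 1 of the 3 Fibroblast arrays, beside 25.9% of all named genes. The median excess of Fibroblast 1 over the mean of Fibroblast 2 and Fibroblast 3 was 0.42 for the effectors, 0.02 for the signalling genes, 0.11 for the antigen genes and -0.02 for all named genes. Of the 17 signalling genes, 7 read highest and 5 lowest in Fibroblast 1. MX1, IFI44L and TLR3 exceeded the higher of the other arrays by 1 unit or more (1.79, 2.04 and 1.30), as did 1.02% of all named genes. Over the mean of the other arrays their excess was 2.06, 2.72 and 2.04. IFI44L, a neighbour and relative of IFI44, read 6.49 in Fibroblast 1 against 4.44 and 3.09, and IFI44 read 7.01 against 4.32 and 6.56, so the latter is low in Fibroblast 2 rather than high in Fibroblast 1 alone. MX1, IFI44, IFI44L and TLR3 were the 4 of 52 genes with an SD of 1 unit or more within Fibroblast, beside 1.17% of all named genes. Within SKN that held for CD74 alone (1.72% of all named genes), and within Brain for none of the 52 (1.56%).

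Smaller excesses over that mean were seen in OAS1 (0.99), HERC6 (1.08), IFIH1 (0.88), USP18 (0.84), IFI6 (0.69), RSAD2 (0.69) and PARP14 (0.68). The members that did not share it included MX2 (-0.02), OAS3 (-0.14) and ISG20 (-0.12). In the further pathway list, 32 of 67 genes (47.8%) were highest in Fibroblast 1. The chemokine CCL5 read 8.09 there against 5.15 and 5.56, the RNA sensor DDX58 (RIG-I) 7.33 against 5.94 and 6.16, and GBP6, a guanylate-binding protein, 4.76 against 3.34 and 3.39. B2M (8.35 against 7.54 and 8.40) and CD74 (3.70 against 3.70 and 3.34) were not above both others. IFNB1 read 1.45 in Fibroblast 1 against 1.96 and 2.24.

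Markers of other cells moved with this excess in part. CDH19, which encodes a cadherin found on Schwann cell precursors, read 5.86 in Fibroblast 1 against 2.14 and 2.82, and NGFR read 7.32 against 5.50 and 5.60. ERBB3 (5.68 against 4.26 and 3.84) and EDNRB (5.41 against 3.36 and 2.94) were also higher there. The rest of the 8 measured crest and Schwann markers were not clearly raised. SOX10 exceeded the higher of the other arrays by 0.11, while S100B (-0.02), FOXD3 (-0.36) and TFAP2A (-0.37) lay below it. The Brain arrays, in which CDH19 read 10.79 to 11.20, had lower OAS1, OAS2, IFIH1 and IFI6 than any Fibroblast array, whereas for MX1 they read 4.50 to 5.52. Leukocyte and microglial markers averaged 3.47 in Fibroblast 1 against 3.55 and 3.57. The part of these cells in the effector readings was not tested.

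SKN 1 stood out in its own group too. Of the 52 genes, 35 (67.3%) were highest in SKN 1 of the 3 SKN arrays, beside 31.6% of all named genes, and 8 of the 10 antigen genes were. The median excess of SKN 1 over the mean of SKN 2 and SKN 3 was 0.29 for the antigen genes, 0.18 for the effectors and 0.08 for the signalling genes, beside -0.01 for all named genes. IRF1, an interferon gamma target that drives antigen genes, read 5.79 in SKN 1 against 4.76 and 4.64, and GBP6 read 6.86 against 5.18 and 4.85. The immunoproteasome subunits PSMB8 (4.85 against 4.18 and 4.53) and PSMB9 (4.70 against 4.20 and 4.18) and TAPBP (8.48 against 7.82 and 7.96) were highest there as well. In Fibroblast 1, 2 of the 10 antigen genes were highest, TAP1 and TAPBP (7.95 against 7.56 and 7.63 for TAPBP). IRF1 (4.82 against 4.44 and 4.59) and GBP6 (4.76 against 3.34 and 3.39) were also highest there. A high reading of TAPBP, IRF1 or GBP6 within the group was thus not particular to SKN 1. No test of the difference between these patterns was made, since each rests on 1 array.

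**Figure D5:**
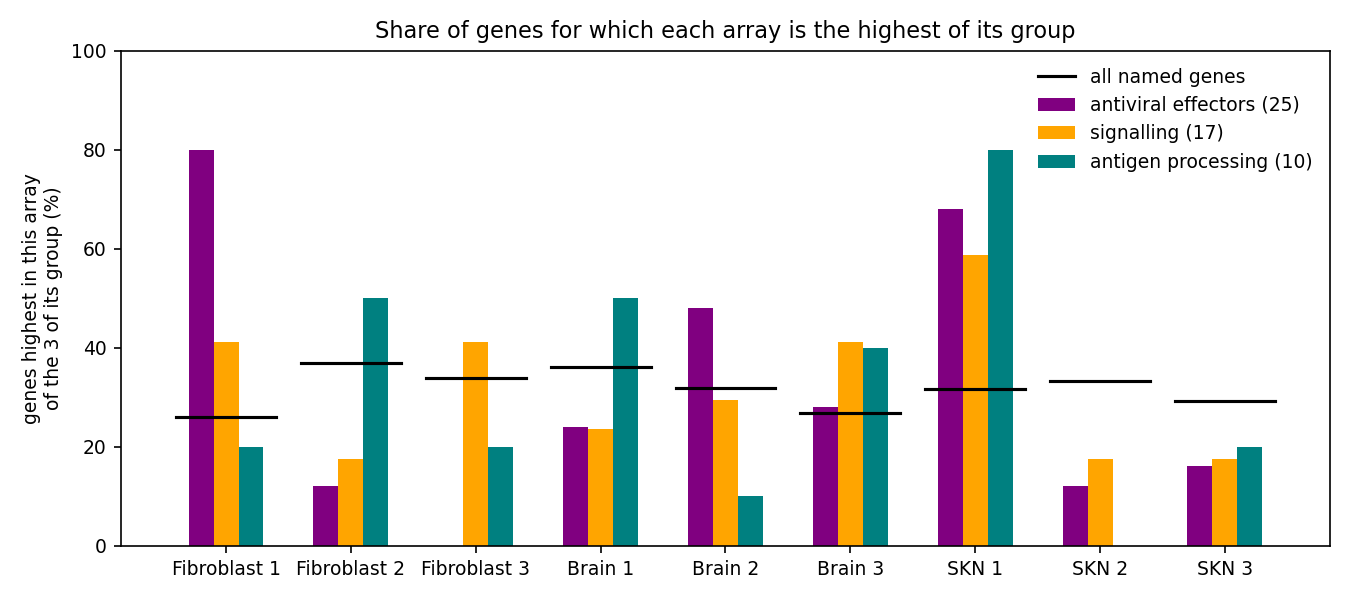
For each of the 9 arrays, the share of genes (vertical axis, percent) that read highest in that array of the 3 of its group, with bars for the 3 roles and a black line for all named genes. The effector bar reaches 80.0% in Fibroblast 1, and in SKN 1 the effector bar stands at 68.0% and the antigen bar at 80.0%, against 25.9% and 31.6% of all named genes.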

How the data were processed

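The authors deposited 1 table of log2 signals for 32205 probe sets in 9 arrays. Base 2 was inferred from the values (0.561 to 13.47, with near-equal array medians), since the file does not state it. Per the submitters' processing notes MAS5, RMA and Partek were used, with no role or version given. Values were used as deposited, with no filter.

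Probe sets with a single symbol (16545, against 370 with several and 15290 unnamed) gave 15947 genes, each represented by its probe set with the highest mean. Of the 52 members, 49 gene identifiers matched the dog RefSeq table (UU_Cfam_GSD_1.0), all with the same symbol. It was used for names and neighbours alone.

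With limma 3.58.1 in R 4.3.3, group means were estimated from the 9 arrays together (6 residual and 2.41 prior degrees of freedom). Tests were 2-sided, with Benjamini-Hochberg adjustment within each comparison. The fit was tested on simulated data. The number of arrays limits the precision. Every measured member could be named, with full statistics for called members, for those at least 1 unit higher in Fibroblast 1 than in both other Fibroblast arrays, and for set regulators. Members and lists were chosen with earlier results of these data known. The labels do not pair arrays by replicate number. Deviations from group means of same-numbered arrays correlated at -0.04 to 0.15, and those of different-numbered arrays at -0.14 to 0.10. The highest value was that of SKN 1 with Fibroblast 1 (0.15). With 3 arrays in each group these correlations cannot settle whether the numbers pair arrays. The labels give no batch.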

Additional observations from a re-analysis of the deposited data

How the results depend on the processing

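Between SKN and Fibroblast the 3 called members became 1 without variance moderation, 1 with only the 6 arrays compared, 1 with the replicate block, and 0 without Fibroblast 1 and Brain 3 together (8 at an unadjusted p under 0.05 by limma). Leaving out each array in turn gave 0 to 3 there (0, with 8 at an unadjusted p under 0.05, without Fibroblast 3, and 1 without Fibroblast 1, Fibroblast 2 or SKN 1). Between SKN and Brain the 14 called members ranged from 9 (without SKN 3) to 16 (without Fibroblast 1) over these removals, and were 13 with the replicate block. Between Brain and Fibroblast the 14 ranged from 10 to 14, were 11 with the block and 8 without Fibroblast 1 and Brain 3 together. The removals leave fewer arrays, but counts also fell in fits that kept all 9, and why they fell was not tested. Of 31 calls of single members, 18 were kept through all 9 removals and 14 through every alternative that gave a value. No difference among these calls changed sign. The class medians moved by less than the spread between arrays under all alternatives run. The count of all probe sets called between SKN and Fibroblast, 1076, was 488 without moderation and 513 without Fibroblast 3. The numbers share no donor in the labels, and same-numbered arrays did not correlate best throughout.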
